A study of Rattus norvegicus with 6 samples.

Results

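A window of 209 nucleotides on rat chromosome 3, with 20 kb on either side, was examined in hippocampal DNA from pups with and without iron deficiency. The study assigned the window to the promoter of Pck1. The window was chosen by its difference in methylation between these same 6 animals, so its methylation is a description and was not tested. It lies in the middle of the range from 163978942 to 164019150 (rn4), which held 666 of the 22152541 CpGs that the 6 files list for the genome. The window held 5 of them, the 20 kb below it held 247 and the 20 kb above it held 414. A coverage of at least 10 reads in all 6 animals was reached by 174 CpGs, namely all 5 of the window, 63 below and 106 above. All positions were taken unchanged from the files.

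Whole-genome bisulfite sequencing (WGBS) reads unmethylated cytosines as thymines and keeps methylated cytosines. The share of unconverted reads at a CpG was taken as its methylation, and the kinds of cytosine that stay unconverted were not told apart. Sequence differences between these animals and rn4 were not examined. A thymine in an animal's own sequence is therefore not told apart from an unmethylated cytosine. The 3 iron-deficient Sprague-Dawley pups were born to dams on a diet with 4 ppm iron from gestational day 2, which was replaced on postnatal day 7 by the control diet with 200 ppm. The 3 iron-sufficient pups came from dams kept on 200 ppm throughout, and all hippocampi were dissected on postnatal day 15. Litters and the sex of the pups are not given in the sources used here, so the p-values measure the spread between these 6 animals. The median coverage per CpG ranged from 17 to 33 reads between animals over the genome and from 20 to 33.5 reads in the examined range. Whole hippocampus holds neurons and glia, and a shift in the share of a cell type cannot be told apart from a shift of methylation within cells.

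Pck1 encodes the cytosolic phosphoenolpyruvate carboxykinase, which turns oxaloacetate into phosphoenolpyruvate and controls the rate of gluconeogenesis in liver and kidney. Its transcription is switched on in fasting by cyclic AMP, through a cyclic AMP response element close to the gene start, and is switched off by insulin. CpG methylation close to a gene start usually goes along with low transcription. No RNA was analysed here.

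The position of the gene start was checked first. The table of RefSeq promoters (build GRCr8) gives for Pck1 the bases around its start on the plus strand, and the part before the start is shown because its CpGs were searched for among the listed positions. It lies at chr3:182348322-182348571 in GRCr8, whereas all other positions in the text are in rn4. Capitals mark the 7 CpGs.
Pck1 promoter: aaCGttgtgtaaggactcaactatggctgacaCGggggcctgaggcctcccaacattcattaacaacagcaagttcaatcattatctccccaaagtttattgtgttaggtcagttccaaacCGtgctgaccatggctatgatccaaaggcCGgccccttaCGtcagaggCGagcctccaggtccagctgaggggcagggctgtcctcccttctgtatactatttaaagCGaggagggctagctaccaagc

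With the 50 bases after the start, this promoter has 8 CpGs, compared with a median of 7 (quartiles 3 and 19) over 33469 rat promoters of the same length. The distances between these 8 CpGs recurred at 1 place among all listed CpGs of the genome on both strands. That place is on the plus strand of chromosome 3, where the span held the 8 matched CpGs and no other listed CpG. At 17 other places 7 of the 8 CpGs matched, in spans with 26 to 61 listed CpGs. The search started from the first promoter CpG, so places that lacked only this CpG were not counted. The matched place puts the gene start at 164012410, which is 13260 nucleotides above the end of the window. The window therefore lies 13.3 kb upstream of the start that the spacing gives and outside the promoter sequence shown. The study called it a promoter region and assigned regions to genes over distances that include this one. The spacing of CpGs was matched and not the letters between them, because no rn4 sequence was used here. In the RefSeq order of genes on GRCr8, the pseudogene LOC103691985 and then Ctcfl1 precede Pck1, and the long noncoding RNA genes LOC120101816 and LOC102550673 follow it before Zbp1.

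Methylation over the 5 CpGs of the window was high in the iron-sufficient animals and low in the iron-deficient ones. It was 82% in iron-sufficient animal 1 (82 of 100 reads, exact binomial 95% interval 73.1% to 89%), 90.6% in animal 2 (259 of 286 reads, 86.6% to 93.7%) and 66.2% in animal 3 (176 of 266 reads, 60.1% to 71.8%). In the iron-deficient animals it was 28.3% (39 of 138 reads, 20.9% to 36.5%), 27% (37 of 137 reads, 19.8% to 35.3%) and 40% (36 of 90 reads, 29.8% to 50.9%). The groups did not overlap, and the lowest iron-sufficient animal lay above the highest iron-deficient one. The group means were 79.6% ± 12.4 (SD, n = 3) and 31.8% ± 7.17 (SD, n = 3), a difference of -47.8 percentage points. Reads were summed over CpGs, so a read over several CpGs counted at each and the intervals are too narrow. The intervals cover counting error only, and the sources used do not state whether copies of 1 molecule were removed.

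The 5 CpGs fall into a lower pair, 13 nucleotides apart, and an upper group of 3 CpGs that are 25 and 23 nucleotides apart. A gap of 147 nucleotides without a listed CpG separates them, longer than the 100-nucleotide reads, so no read reached across it alone.

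At the first CpG of the window methylation was 51.4%, 89.1% and 100% in the iron-sufficient animals 1, 2 and 3 and 51.3%, 0% and 11.5% in the iron-deficient ones. The values of animal 1 of each group were nearly equal, and the other iron-deficient animals lay far below the other controls. At 163998955 it was 94.7%, 89.4% and 100% in the iron-sufficient and 48.7%, 0% and 30.4% in the iron-deficient animals. Here every iron-sufficient animal was above every iron-deficient one. The coverage of the pair ranged from 12 to 113 reads in the iron-sufficient and from 12 to 39 reads in the iron-deficient animals. A value of 0% from 12 reads has an exact binomial upper bound of 26.5%.

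At 163999102 the groups overlapped, with 100%, 95.2% and 81.4% in the iron-sufficient and 0%, 100% and 100% in the iron-deficient animals. At 163999127 the values were 100%, 95.2% and 62.8% against 0%, 0% and 100%, so that the third iron-deficient animal was as high as the highest control. At the last CpG of the window they were 100%, 95.2% and 47.7% against 0%, 6.82% and 0%, without overlap. The last CpG was thus low in all 3 iron-deficient animals, and the first of the upper group in animal 1 alone. Over the lower pair methylation was 66.7%, 89.2% and 100% in the iron-sufficient and 50%, 0% and 20.4% in the iron-deficient animals, without overlap. Over the upper 3 CpGs it was 100%, 95.2% and 62.8% against 0%, 32.7% and 63.4%, and here the groups overlapped, because the third iron-deficient animal was above the third control.

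Of the 15 values in the iron-deficient group, 7 were exactly 0% and 3 were exactly 100%. Of the 15 values in the iron-sufficient group, 5 were exactly 100% and none, 0 of 15, was 0%. Each of the 5 CpGs was at 10% or less in at least 1 animal and at 90% or more in another. The median SD between replicates per CpG was 20.2 percentage points in the iron-sufficient and 26.9 in the iron-deficient group. Over the 4686933 CpGs of the genome with sufficient coverage these medians were 12.3 and 11.5 percentage points.

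**Figure D1:**
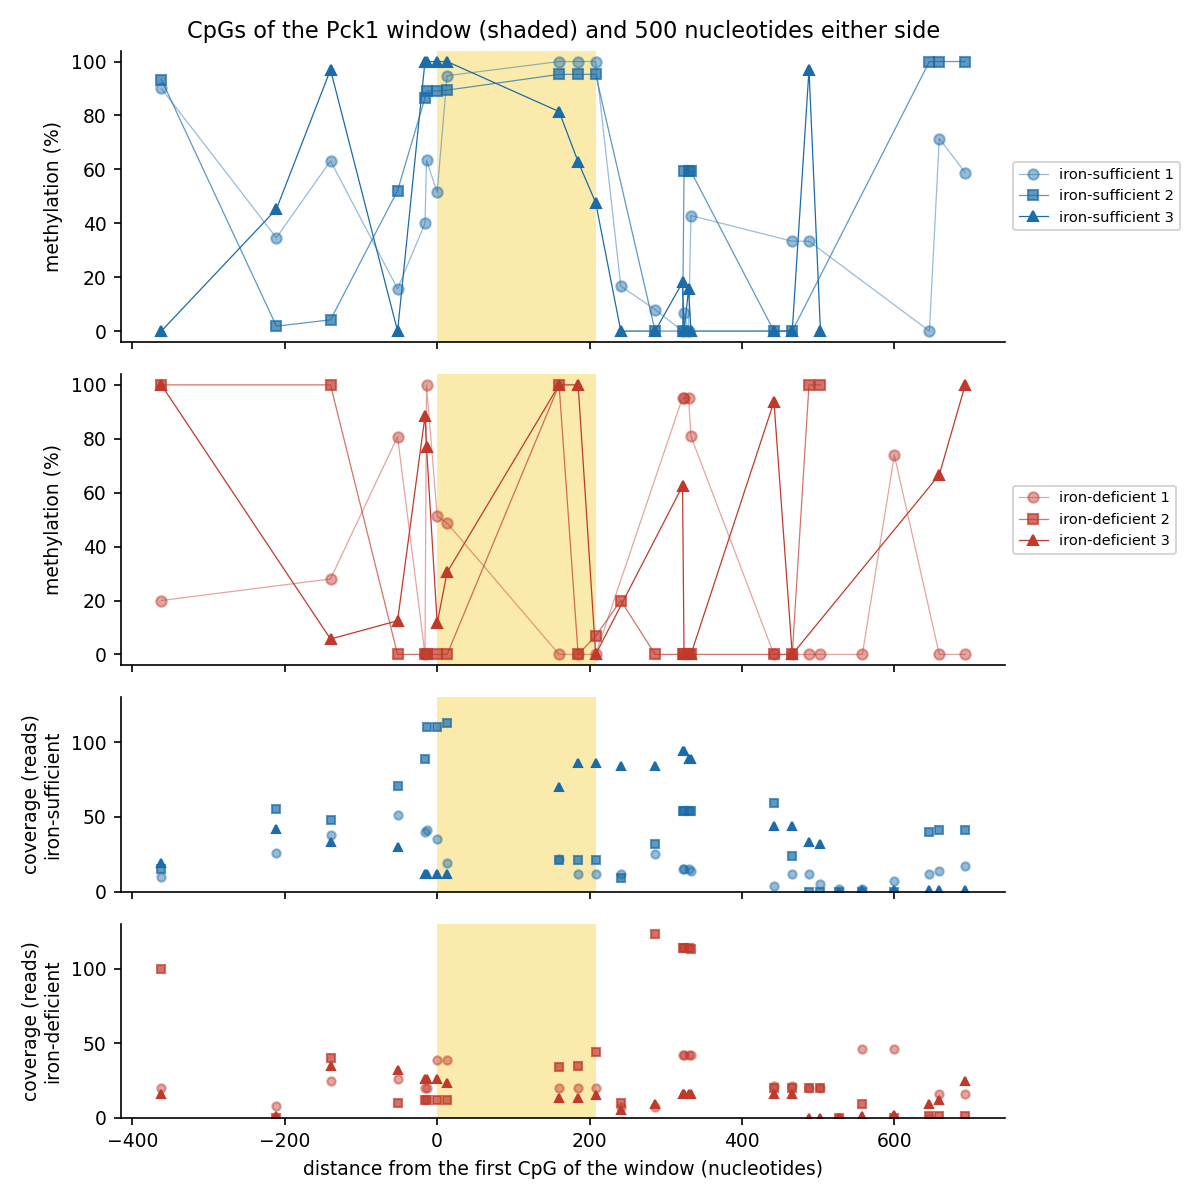
Methylation (upper panels, %, CpGs with at least 10 reads in the animal) and coverage (lower panels, reads, 0 where the CpG is not listed) against the distance from the first CpG of the window in nucleotides, with symbols for the 3 animals of each group. The window is shaded, and within it the iron-sufficient animals lie mostly high while the iron-deficient animals are mostly low, with animals 2 and 3 at 100% at some CpGs.

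The study called regions with its program Defiant, whose expansion algorithm, abbreviated WWE, weights each animal by its coverage. Its criteria for a CpG are 10 or more reads in every animal, a weighted difference of 10 percentage points or more, and a p-value of 0.05 or less. They were met by 3 of the 5 CpGs, a share fixed by the choice of the window. Over the genome 3.21% of the CpGs met them, 1.64% with a higher and 1.57% with a lower value in the iron-deficient group. Run again here on the same files, WWE returned the window itself, which its choice fixed, and called no other region in the 40 kb. The number of regions it called over the genome is not given here, so this absence is not read as a trait of the locus.

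Beside the window the groups overlapped. The nearest CpG below with sufficient coverage, 163998928, is 14 nucleotides away and was at 63.4%, 89.1% and 100% in the iron-sufficient and at 100%, 0% and 76.9% in the iron-deficient animals, so the groups overlapped. Its weighted difference was -14.5 percentage points, in the direction of the window. The next CpG below, 163998926, was at 40%, 86.5% and 100% against 0%, 0% and 88.5%. Its groups overlapped too, with a weighted difference of -34.8 percentage points in the same direction. The nearest sufficiently covered CpG above the window, 163999264, is 114 nucleotides away and was at 0%, 0% and 18.1% against 95.2%, 0% and 62.5%. It was thus higher in 2 iron-deficient animals, opposite to the window, while the third was at 0% as were 2 controls. Over the 5 sufficiently covered CpGs in the 500 nucleotides below the window, the iron-sufficient group was at 55.8% ± 11.5 and the iron-deficient group at 58.5% ± 19 (SD, n = 3 each).

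Summed over the 5 sufficiently covered CpGs in the 500 nucleotides above the window, methylation was 40% or less in all but 1 animal. The iron-sufficient animals were at 15.5%, 40% and 7.56% and the iron-deficient ones at 81.5%, 0% and 12.5%. Single CpGs among them were higher, up to 59.3% in iron-sufficient animal 2 and 62.5% in iron-deficient animal 3. The last of the 5 CpGs is 163999408, and some less covered CpGs farther up were higher. At 163999635 the values were 58.8%, 100% and 0% (17, 41 and 1 reads) against 0%, 100% and 100% (16, 1 and 25 reads). Over the 5 sufficiently covered CpGs, iron-deficient animal 1 stood apart from the other 5 animals, and iron-deficient animal 2 had no methylated read. Its 0 of 475 is a sum over CpGs with 20 to 114 reads each, in which a read can count more than once. The 500-nucleotide stretches were chosen after the values were seen and were not tested.

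Between neighboring CpGs of the window at most 30 nucleotides apart, methylation changed by 90 percentage points or more at 1 of 3 pairs in iron-deficient animals 2 and 3 each. Such jumps were also seen outside the window. In iron-deficient animal 1, the CpG at 163998926 was at 0% and the one at 163998928, 2 nucleotides on, at 100%, each with 20 reads. Among CpGs at most 30 nucleotides apart with at least 10 reads each, 2.17% to 13.2% of the pairs in the examined range differed by 90 percentage points or more within an animal. Genome-wide the share was 1.2% to 6.85%. In every animal the share was higher in the examined range than genome-wide. Neighboring CpGs in the range often had the same number of reads, 27.1% to 58% of such pairs compared with 27.5% to 56% genome-wide. Between 40.9% and 70.4% of the CpGs with at least 10 reads were at exactly 0% or 100%, compared with 44.5% to 72.8% genome-wide. Whether duplicate reads were removed was not stated in the sources used, and the part of these read patterns in the difference of the window was not tested.

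Coverage entered the choice of the window, through the minimum of 10 reads and the weighting, so it is described without a test. The mean coverage of the 5 CpGs was 20, 57.2 and 53.2 reads in the iron-sufficient and 27.6, 27.4 and 18 reads in the iron-deficient animals. Divided by the median coverage of each animal over the genome it was 0.952, 2.6 and 1.9 against 1.02, 0.83 and 1.06. Iron-sufficient animals 2 and 3 lay above all others and animal 1 lay within the range of the iron-deficient group. The means were 1.82 ± 0.827 and 0.97 ± 0.123 (SD, n = 3 each). The part of coverage in the methylation difference was not tested.

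Averaged over the 20 kb on either side, no difference between the groups was detected. Over the 63 CpGs of the 20 kb below, it was 63.7%, 72.5% and 70.1% in the iron-sufficient and 68%, 72.6% and 65.3% in the iron-deficient animals. The ranges overlapped almost fully, and the group means of 68.8% ± 4.57 and 68.6% ± 3.69 (SD, n = 3 each) differed by -0.116 percentage points (two-sided exact permutation test, p = 1, where 3 against 3 cannot go below 0.1). Over the 106 CpGs of the 20 kb above, it was 73.6%, 67.7% and 72.1% against 76.2%, 67.2% and 76.1%. The means of 71.2% ± 3.08 and 73.2% ± 5.19 (SD, n = 3 each) differed by 1.99 percentage points, which did not exceed the spread between replicates (exact permutation test, p = 0.6). The sign of both differences changed under some of the alternatives given in the closing section.

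The upper 20 kb was also divided at the gene start, a division added after the values were seen. From the window to the start, 66 CpGs gave 69% ± 4.78 in the iron-sufficient and 69.2% ± 9.82 in the iron-deficient animals (SD, n = 3 each, exact permutation test, p = 1). From the start to the upper end, 40 CpGs gave 73.7%, 64.5% and 83.1% against 70.7%, 82.2% and 85.8%. These means of 73.8% ± 9.28 and 79.5% ± 7.9 (SD, n = 3 each) overlapped widely (exact permutation test, p = 0.6).

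**Figure D2:**
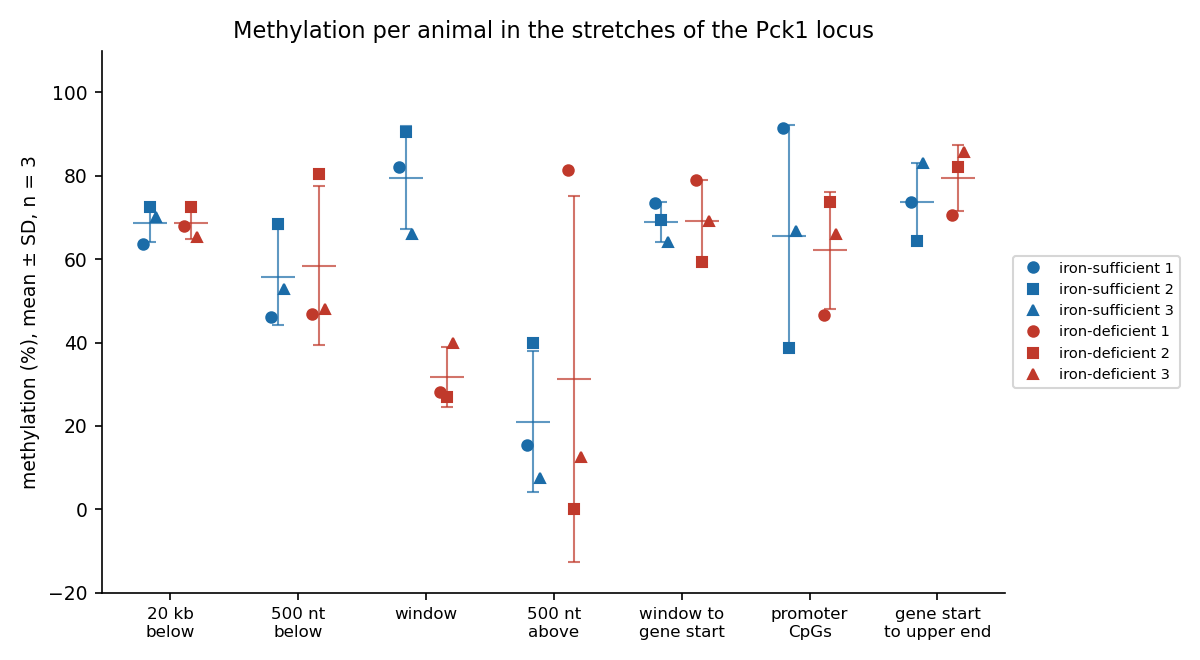
Methylation (%) of each animal in 7 stretches of the locus, ordered by position, with the group mean and SD (n = 3) as horizontal and vertical lines. The groups are apart in the window, where the iron-sufficient animals lie between 66.2% and 90.6% and the iron-deficient ones between 27% and 40%, and overlap in the other stretches.

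Of the 169 sufficiently covered CpGs outside the window, 3 met the criteria of differential methylation (1.78%), compared with 3.21% over the genome. All 3 lay in the lower 20 kb, a share of 4.76% of its 63 CpGs, and 0 of the 106 CpGs of the upper 20 kb met them. The CpG 163979898, 19044 nucleotides below the window, was at 55.1%, 22.2% and 53.6% in the iron-sufficient and at 75%, 100% and 100% in the iron-deficient animals. The CpG 163980797, 18145 nucleotides below, was at 56.5%, 57.5% and 33.3% against 100%, 100% and 63%. Both were higher in every iron-deficient animal, opposite in direction to the window. The CpG 163985125, 13817 nucleotides below, had a weighted difference of -19.8 percentage points, but its groups overlapped, with 82.8%, 100% and 100% against 100%, 70.9% and 82.9%.

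The groups did not overlap at 8 of the 169 CpGs, 4 higher and 4 lower in the iron-deficient group, a share of 4.73% compared with 5.11% over the genome (2.68% higher and 2.43% lower). In the lower 20 kb it was 6 of 63 CpGs (9.52%, 4 higher and 2 lower). In the upper 20 kb it was 2 of 106 (1.89%, 2 lower), and this split was not tested. Over all 169 CpGs, the weighted difference was above 0 at 81, below 0 at 79 and 0 at 9, with a median of 0 percentage points. Between animals the CpGs of the locus varied more than the genome as a whole. The median SD per CpG was 16.6 percentage points in the iron-sufficient and 15.2 in the iron-deficient group, and 39 of the 169 CpGs (23.1%) were at 10% or less in 1 animal and at 90% or more in another, compared with 14.8% of the CpGs of the genome.

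As a test on regions fixed by position, methylated and unmethylated counts were summed over tiles of 1000 nucleotides. The edgeR quasi-likelihood test was fitted to all 894922 tiles of the genome that had at least 5 CpGs listed in all animals and 50 reads in each. Of the 30 tiles tested outside the window, none, 0 of 30, had an unadjusted p-value under 0.05, where 3.01% of the tiles of the genome did. The smallest p-value among them was 0.144 (edgeR), and every Benjamini-Hochberg adjusted p-value was 1. Over the genome 0 tiles were called after adjustment. limma on log2 ratios of the counts also gave 0 of the 30 tiles with an unadjusted p-value under 0.05, compared with 4.34% of the tiles of the genome.

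The differences of the 30 tiles ranged from -10.9 to 16.3 percentage points, 13 of them above 0 and 17 below. Their median size was 4.11 percentage points, compared with 5.52 over all tiles. The 30 tiles also held more CpGs, a median of 11 compared with 8 over all tiles, and the part of this was not tested. The tile from 163979000 to 163979999 had the largest increase, with 76.3%, 59% and 82.8% in the iron-sufficient and 94.2%, 100% and 72.9% in the iron-deficient animals. The tile from 164000000 to 164000999 had the largest decrease, with 64.6%, 55.7% and 64% against 43.1%, 34.3% and 74.1%. The groups overlapped in both.

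The next increases were 10.6 percentage points from 163982000 to 163982999 and 8.75 from 164015000 to 164015999. The latter tile, downstream of the gene start, was the 1 tile of 30 (3.33%) in which the groups did not overlap, compared with 10% of the tiles of the genome (5.93% higher and 4.08% lower). It was at 90.4%, 80.1% and 88.7% in the iron-sufficient and at 100%, 94.7% and 90.8% in the iron-deficient animals (edgeR, unadjusted p = 0.148, adjusted p = 1). The next decreases were -9.04 percentage points from 163984000 to 163984999 and -7.22 from 163997000 to 163997999.

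The window itself is divided between 2 tiles, which also hold CpGs outside it. The lower tile was at 75.7%, 77.4% and 82.9% in the iron-sufficient and at 78.9%, 76.3% and 61.6% in the iron-deficient animals, and the upper tile was at 42.9%, 49.1% and 21.2% against 50.3%, 5.52% and 44.7%. In both the groups overlapped, unlike in the window.

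**Figure D3:**
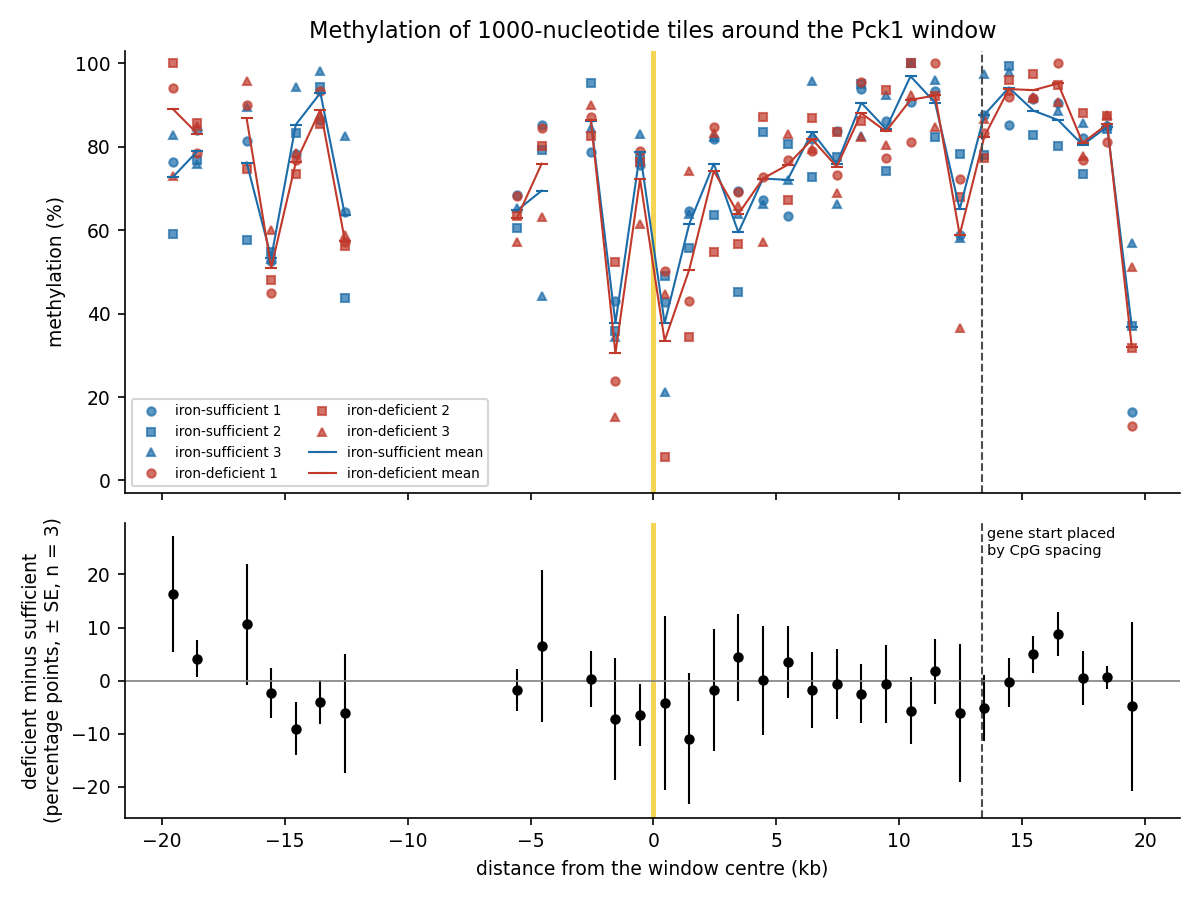
Methylation (%) of tiles of 1000 nucleotides by animal with the group means (upper panel) and the difference of the means in percentage points with its SE (n = 3, lower panel), against the distance from the window centre in kb. The window is the yellow band and the dashed line is the gene start placed by CpG spacing. Tiles with too few CpGs or reads, or reaching beyond the range, are left out. The differences lie between -10.9 and 16.3 percentage points.

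Along the locus, tiles were mostly highly methylated with a few dips. The median methylation of the 30 tiles was 80.8%, close to 80.2% over the genome, and 2 of them were under 50%, the tile from 163997000 to 163997999 just below the window and the tile from 164018000 to 164018999 near the upper end. Together with the upper tile of the window, these form dips of 1 tile each among the tiles that were counted. The tile near the upper end was at 16.5%, 37.1% and 56.8% in the iron-sufficient and 13%, 31.8% and 51.1% in the iron-deficient animals, so animals of 1 group differed from each other more than the groups did. Its dip may be longer, because the last 4 CpGs of the range were also mostly low. Their tile reaches beyond the range and was left out. The 4 CpGs were at 60% (10 reads), 15.4% and 0% against 0%, 6.44% and 3.8%. With all reads counted, the tile from 163991000 to 163991999 was also low, with 9.38%, 54.2% and 12.5% against 50%, 19.6% and 13.4%. Between 163989880 and the next listed CpG, there were 1533 nucleotides.

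At the 5′ end of the gene, the 8 CpGs placed by spacing were partly methylated in both groups. Summed over them, methylation was 91.6% in iron-sufficient animal 1 (356 reads, exact binomial 95% interval 88.2% to 94.2%), 38.6% in animal 2 (145 reads, 30.7% to 47.1%) and 66.7% in animal 3 (15 reads, 38.4% to 88.2%). In the iron-deficient animals it was 46.6% (337 reads, 41.2% to 52.1%), 73.8% (84 reads, 63.1% to 82.8%) and 66% (235 reads, 59.5% to 72%). A read over several of these CpGs again counted at each, so the intervals are too narrow. All iron-deficient animals lay within the range of the iron-sufficient group. The means of 65.6% ± 26.5 and 62.1% ± 14 (SD, n = 3 each) differed by -3.5 percentage points, well inside the replicate spread (exact permutation test, two-sided, added after the values were seen, p = 0.9). Weighting the animals of a group by their reads gave a difference of -19 percentage points, and unweighted means of the CpG percentages gave 3.31. It was -17 without iron-sufficient animal 2 and 9.47 without iron-sufficient animal 1, so neither its size nor its sign is fixed.

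The depth limits this comparison, because no CpG of the promoter reached 10 reads in all 6 animals. Iron-sufficient animal 3 had no reads at the CpGs from -129 to -81, counted in bases from the gene start, and its other CpGs had 1 to 6 reads each.

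Both strands of the promoter of 300 bases were searched for 6 motifs. These were the full cyclic AMP response element, written TGACGTCA, and its shorter form, written CGTCA, which is contained in the full element. The TATA-box letters TATAAA were searched, as was the related run TATTTA, besides the CCAAT box and the forkhead motif TGTTTAC. In the Pck1 promoter 1 match of CGTCA, from -90 to -86, and 1 match of TATTTA, from -31 to -26, were found, and the others had none. Of 33469 promoters of this length, 21.2% hold CGTCA and 14.7% hold TATTTA on either strand. The share was 1.83% for TGACGTCA, 14.2% for TATAAA, 37.5% for CCAAT and 3.78% for TGTTTAC.

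The CpG at -90 is part of the CGTCA match. It was at 100% in iron-sufficient animal 1 (51 reads) and at 0% in animal 2 (5 reads), and was not listed in animal 3. In the iron-deficient animals it was at 51.4% (37 reads), 25% (4 reads) and 20% (20 reads), all between the 2 iron-sufficient values. The neighboring CpG at -100 was at 100% and 18.5% in iron-sufficient animals 1 and 2 and at 64.9%, 100% and 36.8% in the iron-deficient animals. At -22, between the TATTTA match and the start, every read was methylated in all 6 animals, with 33, 6 and 1 reads in the iron-sufficient and 8, 5 and 19 reads in the iron-deficient group. The farthest of the 8 CpGs from the start, at -248, was at 69.1%, 68.2% and 20% against 30.2%, 51.4% and 76.4%, with wide overlap.

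**Figure D4:**
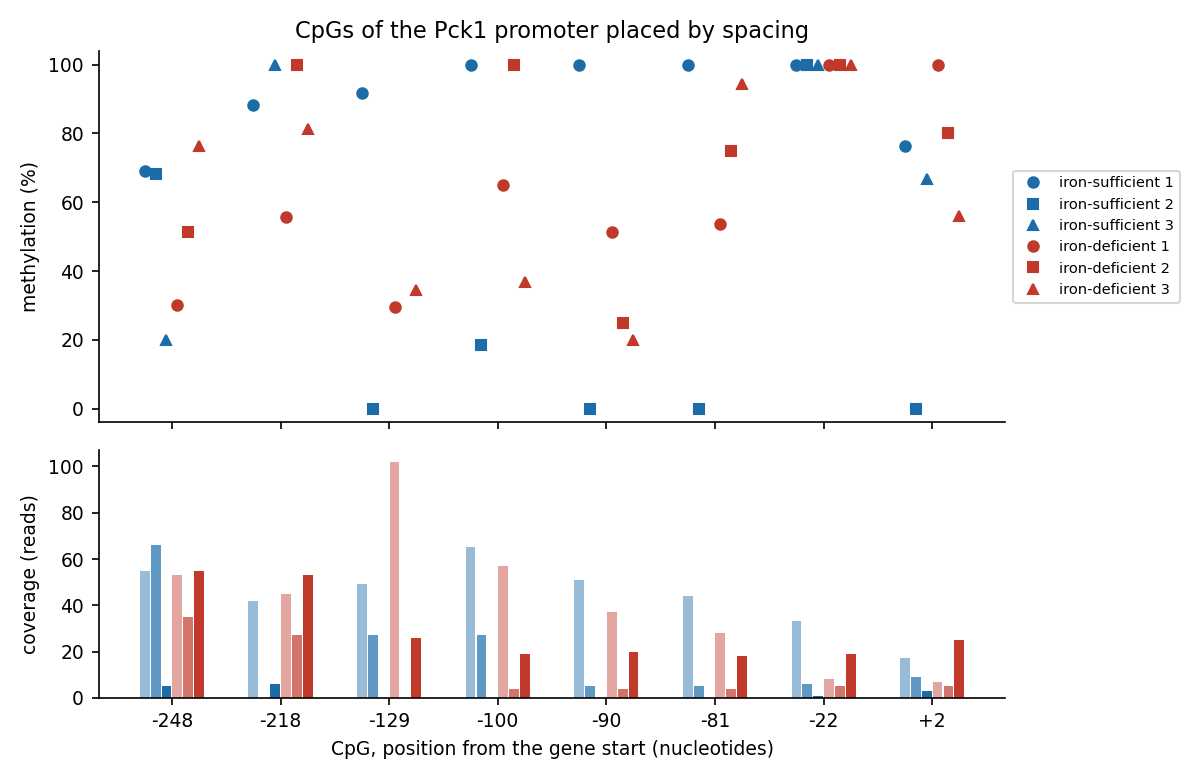
Methylation (upper panel, %) and coverage (lower panel, reads) at the 8 CpGs placed by spacing at the Pck1 promoter, by position from the gene start, with symbols for each animal and bars in the same order of animals. The animals of both groups are mixed at each CpG, at -22 all 6 are at 100%, and several bars are missing or below 10 reads.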

How the data were processed

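WGBS of hippocampal DNA of 3 iron-sufficient and 3 iron-deficient rat pups was analysed, with groups and replicate numbers from the sample titles. According to the methods, the authors trimmed adapters, aligned reads of 100 bases, paired or single, to rn4 with BS Seeker, kept only read 1 at overlapping bases and merged both strands. Each deposited file lists CpGs with a methylated fraction and, as coverage, a read count that was not normalized. Multiplied, they gave whole methylated counts at every CpG listed (tolerance 0.01 reads). The sources used do not state whether positions are 0-based or 1-based.

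Counts were joined by position (Python 3.11.15, pandas 2.3.3, scipy 1.17.1, numpy 2.4.6). Methylation of a stretch was the sum of methylated reads over all reads, at CpGs with 10 or more reads in every animal. At the 8 promoter CpGs all reads were counted, without this minimum. A read counted at each CpG it covered. Stretches were compared by exact permutation tests, two-sided. The planned test of the window's coverage is not given, because coverage entered the choice of the window. Tiles were compared with edgeR 4.0.16 (glmQLFit and glmQLFTest, R 4.3.3, sample effects, common dispersion, Benjamini-Hochberg adjustment over all tiles), with limma 3.58.1 on log2((methylated + 1)/(unmethylated + 1)) as the alternative. WWE was written anew from its description, with at least 5 CpGs, at most 5 consecutive similar CpGs and gaps of up to 20000 nucleotides. WWE and the tile tests were tried on simulated counts with known changes, and the permutation test on made-up values. The counts simulated for WWE had no spread between the animals of a group beyond counting error. The median coverage per CpG of 17 to 33 reads gives an animal's value at a CpG a wide counting error.

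The window and the rules were chosen with earlier results of these data known. Named were all window CpGs, the nearest CpG on each side, flank CpGs that met the criteria, the 3 extreme tiles in each direction where none passed, runs of tiles under 50%, and the 3 tiles most like the window. No rn4 annotation or sequence was used here, so genes other than Pck1 were not placed. Alternatives varied the coverage minimum, weighting, stretch and tile definition, tool, replicate block and each animal left out.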

Additional observations from a re-analysis of the deposited data

How the results depend on the processing

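The difference of the window was -54.5 to -42.3 percentage points with each animal left out, and -56.9 with unweighted CpG percentages. The window was chosen by its difference in these same animals, so these values describe it and lend it no support. No CpG of the window reached 15 reads in all animals, so minimums of 15 and 20 gave no value. For the lower 20 kb the difference of -0.116 percentage points became 0.419, 0.697 and 2.02 with coverage minimums of 1, 5 and 20, 0.253 with coverage-weighted groups, 1.59 within 10 kb, and -2.66 to 1.76 with each animal left out, with a positive sign without iron-sufficient animals 2 or 3 or iron-deficient animals 1 or 3. For the upper 20 kb the difference of 1.99 became -1.11 with a minimum of 15 and -0.314 within 10 kb, and 0.269 to 4.99 with each animal left out. The cause was not tested. The promoter difference of -3.5 became -19 with coverage-weighted groups, 3.31 with unweighted CpG percentages and -17 to 9.47 with each animal left out, positive without iron-sufficient animal 1 or iron-deficient animal 1 (4.26). The coverage ratio of the window differed by -1.28 to -0.456 with each animal left out.

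With tiles shifted by 500 nucleotides, 1 of 29 tiles, from 163979500 to 163980499, had an unadjusted p-value under 0.05 in edgeR, compared with 3.01% of all shifted tiles. With each animal left out the number was 0 to 2, namely 2 of 30 without iron-sufficient animal 1 (3.78% of all tiles) and 1 of 30 without iron-deficient animal 3 (3.44%), always with an adjusted p-value of 1. The number of flank CpGs meeting the criteria, 3 of 169, was 6 of 280 with a coverage minimum of 5 (2.14%, genome 3.61%) and 1 of 49 with a minimum of 20 (2.04%, genome 2.86%). It was 1 of 169 (0.592%) with a p-value threshold of 0.01 (genome 0.603%) and with unweighted means (genome 1.41%). With each animal left out it was 3 to 8, namely 8 of 250 without iron-sufficient animal 2 (3.2%, genome 3.62%) and 5 of 193 without iron-deficient animal 3 (2.59%, genome 3.36%). The genome shares and the weighted promoter difference were added after seeing the data.

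The replicate block left 0 of 30 tiles with an unadjusted p-value under 0.05, compared with 2.78% of all tiles. The deviations of animals with the same number from their group means correlated by 0.00489, 0.00213 and 0.00251 over the tiles. Those of animals with other numbers correlated by -0.00383 to 0.000713. All these values are very small, and deviations from a group mean depend on each other, so no pairing is read from them. The pairs share only a number.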

Other observations

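Elsewhere in the genome, 3 of 894922 tiles were within 10 percentage points of the window in all 6 animals. The tiles with the smallest mean absolute difference from it over the 6 animals were 36324000 to 36324999 of chromosome 15 (5.12 percentage points), 60618000 to 60618999 of chromosome 6 (5.13), and, with 5.19, 35391000 to 35391999 of chromosome 17. The first was at 88.6%, 95% and 74% in the iron-sufficient and at 34.9%, 31.9% and 39.8% in the iron-deficient animals. These tiles were chosen for this pattern, so their values are a description.

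Of the 174 sufficiently covered CpGs of the locus, 6 were at 10% or less and 13 at 90% or more in all 6 animals. The genome-wide shares of such CpGs are not given here, so these counts only describe the locus. Among the former are 164002247 and 164002251, which lie 4 nucleotides apart between the window and the gene start, in a tile with a mean of 59.5% in the iron-sufficient and 63.9% in the iron-deficient group.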
